A study of Mus musculus with 6 samples.

Results

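Nuclear receptors are transcription factors that bind DNA through zinc fingers and carry a pocket for a lipophilic ligand such as a hormone, a sterol, a bile acid or a fatty acid. Orphan members of the family have no established ligand. Many of them bind one or a pair of copies of the hexamer AGGTCA, as monomers, homodimers or heterodimers with RXR, and recruit corepressors or coactivators that set the state of chromatin. In pluripotent cells several orphan receptors take part in the network around Oct4, and GCNF (Nr6a1) is known to silence Oct4 when the cells differentiate. The genes described here are 36 nuclear receptor genes other than the RAR and RXR genes, taken by name as a gene family out of 22367 protein-coding genes on chromosomes 1 to 19, X and Y.

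Open chromatin was mapped with ATAC-seq, a method that lets the Tn5 transposase insert adapters into accessible DNA. All cells derived from J1 mouse embryonic stem cells (ESCs) of strain 129SV, so the 3 states share 1 parental line. ESCs grew in serum with LIF and the 2i inhibitors CHIR99021 and PD0325901. D-EPSCs, made under the Deng conditions, grew in N2B27 with knockout serum replacement, LIF, CHIR99021, dimethindene maleate and minocycline hydrochloride. L-EPSCs, made under the Liu conditions, grew in knockout serum replacement with LIF, CHIR99021, PD0325901, A-419259, XAV939, JNK inhibitor VIII and SB203580. ESCs and L-EPSCs were kept on mouse fibroblast feeders or on gelatin, and per the study's methods both EPSCs were passaged without feeders before the assay. Each state had 2 technical replicates, which the authors combined into 1 peak list per state. The lists held 28965 peaks for ESCs, 50225 for D-EPSCs and 46601 for L-EPSCs, with median widths of 369, 364 and 358 bp. No peak has a height, a score or a value per replicate, and the depth behind each list is unknown. No test between states was therefore possible, and a missing peak means that none was called and not that chromatin was closed.

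Start peaks at genes that mark the labelled cells were checked first. Of 8 pluripotency genes, 6 had a peak within 1 kb of a start in the ESC list and 8 in each EPSC list, and the ESC list lacked one at Nanog and Tdgf1. Of 8 genes that mark feeder fibroblasts, the ESC list had a start peak at 1, the D-EPSC list at 4 and the L-EPSC list at 2. Col1a1 and Twist1 had one in both EPSC lists only, Col1a2 in the D-EPSC list only and Thy1 in the ESC and D-EPSC lists. The part of feeder cells in the receptor results below was not tested.

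A receptor gene was given a start peak when a peak shared at least 1 bp with the window of 1 kb on either side of any annotated transcript start. On this measure ESCs had a start peak at 24 of the 36 genes, D-EPSCs at 30 and L-EPSCs at 29. These are 66.7%, 83.3% and 80.6% of the family, beside 52.3%, 64.2% and 61.5% of all protein-coding genes. With each list cut to its 28965 widest peaks, the number of peaks in the ESC list, the counts drew closer, to 24, 26 and 25, or 66.7%, 72.2% and 69.4%, beside 52.3%, 59.4% and 57.0% of all genes under the same cut. Start peaks in all 3 lists were found for 23 receptors, or 63.9% beside 51.2% of all genes. A further 5 had start peaks in both EPSC lists but not the ESC list (13.9% beside 9.09%), namely Nr1h2, Hnf4a, Nr2f1, Esrrg and Nr3c1. This class fell to 3, Nr1h2, Nr2f1 and Nr3c1, in the lists of equal size (8.33% beside 6.0% of all genes), where Hnf4a and Esrrg had no start peak left. It fell to the same 3 genes with a common minimum width of 128 bp, which left Hnf4a in L-EPSCs alone and Esrrg in D-EPSCs alone. Nr2e3 had one in D-EPSCs alone (1 gene, with 3.30% of all genes in that class), Hnf4g in L-EPSCs alone (1 gene, 0.908% of all genes) and Vdr in ESCs and D-EPSCs (1 gene, 0.537% of all genes). No receptor had a start peak in ESCs alone (0.295% of all genes) or in ESCs and L-EPSCs alone (0.268%). The remaining 5 receptors, Nr1h4, Nr1i2, Nr1i3, Nr2e1 and Nr2f2, had no start peak in any list, which is 13.9% of the family beside 34.4% of all genes.

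**Figure D1:**
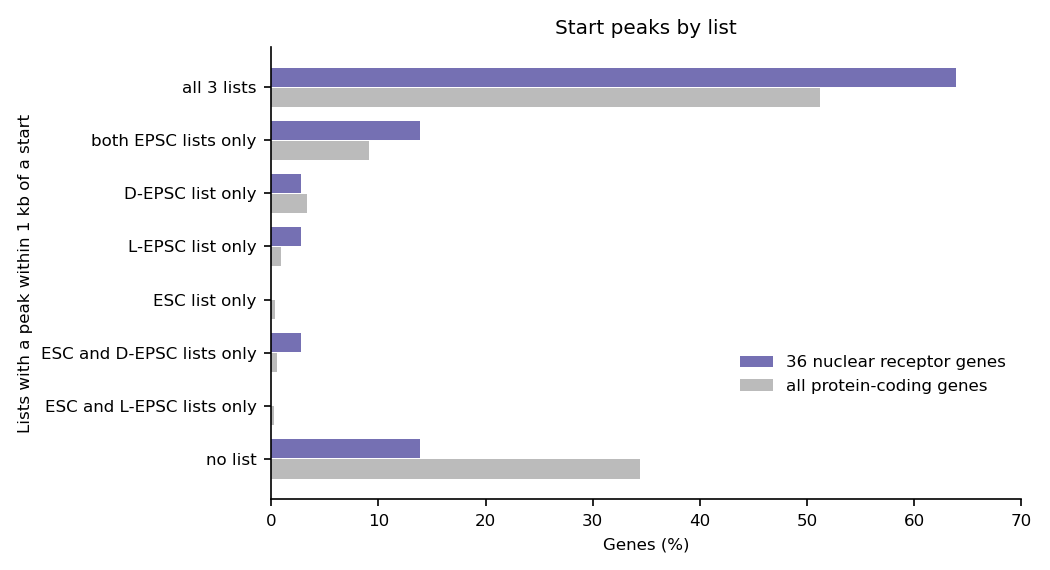
Bars give the percent of genes (horizontal axis) in each combination of peak lists with a start peak (vertical axis), for the 36 nuclear receptor genes in purple and all 22367 protein-coding genes in grey. The family stood at 63.9% beside 51.2% for all 3 lists and at 13.9% beside 34.4% for no list.

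Between pairs of states the differences in the full lists ran mostly towards the EPSCs, for the receptors and for all genes. Between ESCs and D-EPSCs, 6 receptors had a start peak in D-EPSCs only (12.4% of all genes) and 0 in ESCs only (0.563%). Between ESCs and L-EPSCs, 6 had one in L-EPSCs only (10.0% of all genes) and 1, Vdr, in ESCs only (0.832%). D-EPSCs and L-EPSCs differed at 3 receptors, with Vdr and Nr2e3 on the D-EPSC side (2 genes, 3.84% of all genes) and Hnf4g on the L-EPSC side (1 gene, 1.18%). The ESC list has the fewest peaks and each list enters more than one pair, so these pairs are not independent. In the lists of equal size the counts were nearer to each other, with 4 receptors in D-EPSCs and not ESCs (9.13% of all genes) against 2 the other way (2.06%), and 4 in L-EPSCs and not ESCs (7.22%) against 3 the other way (2.55%). With starts of protein-coding transcripts only, the pair of D-EPSCs and L-EPSCs turned to 1 receptor on the D-EPSC side and 2 on the L-EPSC side. The share of all genes was not computed for these starts.

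Both thyroid hormone receptor genes and all 3 PPAR genes, which encode partners of RXR, were in the class with all 3 lists. Widths are given in the order ESCs, D-EPSCs, L-EPSCs from here on where no list is named. The start peak of Thrb measured 1244, 819 and 1021 bp, so it was widest in ESCs. Ppara, which drives fatty acid oxidation, had start peaks of 465, 957 and 1188 bp. At Pparg, the adipocyte regulator, the widths were 804, 1606 and 1378 bp, and both EPSC peaks spanned the ESC peak. The Ppard peak was narrow in every list, at 365, 537 and 470 bp. In Thrb, Ppard and Pparg the most 5′ start carried the peak and the later starts carried none.

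Thra was in all 3 lists only because its starts were pooled. It has 4 start clusters, where starts less than 500 bp apart were joined. At the second cluster, the first with a coding transcript, the D-EPSC peak was 615 bp wide and the L-EPSC peak 671 bp, while ESCs had none at the first 3 clusters. The only ESC start peak of Thra, 753 bp wide at chr11:98615637-98616389 (mm9), lay in an intron 737 bp from the fourth cluster. It overlapped a D-EPSC and an L-EPSC peak of 361 and 324 bp that began farther downstream and so counted as gene body peaks. At the first coding start of Thra a peak was thus called in the EPSC lists only.

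The circadian receptors were represented in every state. REV-ERBα (Nr1d1) and REV-ERBβ (Nr1d2) are heme-binding repressors of clock genes, and the ROR proteins activate through the same elements. Nr1d2 had one of the widest start peaks of the family in ESCs and changed little in width, at 1473, 1427 and 1355 bp. Nr1d1 had 551, 269 and 429 bp, narrowest in D-EPSCs. Nr1d1 and Thra overlap at their 3′ ends, but their start peaks are separate, those of Nr1d1 at its own start and those of Thra at the far end of the pair in the EPSC lists and inside Thra in ESCs. Rora, a gene of 734 kb, had widest start peaks of 896, 1652 and 1258 bp, and 4 separate start peaks in ESCs against 2 in each EPSC list. The ESC peaks of 896 and 224 bp at its internal start both overlapped the single D-EPSC peak of 1652 bp. Rorb had 568, 692 and 402 bp, all at or just upstream of its first start.

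Among the sterol, bile acid and xenobiotic receptors the 2 LXR genes, which sense oxysterols, fell into different classes. Nr1h3 (LXRα) had 2 start peaks in each list, at its first and second start clusters, and the widest measured 865, 694 and 776 bp. Nr1h2 (LXRβ) had a D-EPSC peak of 884 bp and an L-EPSC peak of 484 bp. The closest ESC peak was 2581 bp from any of its starts. The D-EPSC peak, chr7:51808493-51809376, ran from 55 bp upstream of the first start to 828 bp inside the gene. Nr1h2 stayed in the class of both EPSC lists under each of the 8 alternative definitions tried. Vdr, the vitamin D receptor, had a 363 bp peak in ESCs and a 538 bp peak in D-EPSCs that overlapped it, both at the third start cluster, 2320 bp inside the gene. The closest L-EPSC peak was 9802 bp from a Vdr start. The bile acid receptor FXR (Nr1h4) and the xenobiotic sensors PXR (Nr1i2) and CAR (Nr1i3) had no start peak, and the nearest peak lay 35.4 kb away in each list for Nr1h4, 9.80, 10.1 and 26.7 kb away for Nr1i2, and 6.53, 6.60 and 7.93 kb away for Nr1i3.

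The NR2 group of 9 genes was the most varied. Nr2c1 and Nr2c2 encode the testicular receptors TR2 and TR4. Nr2c1 had start peaks of 331, 773 and 841 bp and Nr2c2 of 792, 1344 and 1628 bp, wider in both EPSC lists than in ESCs at each gene. Nr2f1 (COUP-TFI), a regulator of neural development, had a D-EPSC peak of 460 bp and an L-EPSC peak of 376 bp, which began 164 and 249 bp inside the gene at the first start. The nearest ESC peak lay 4002 bp upstream of the first start, where the EPSC lists had overlapping peaks as well. The related Nr2f2 (COUP-TFII) had no start peak, but an intronic peak of 399, 452 and 389 bp lay 1127, 1063 and 1159 bp from its nearest start, just outside the window in every list. Nr2f6 (EAR2) resembled Thra in that all 3 lists were reached only by an internal start. At its first start cluster the D-EPSC peak measured 899 bp and the L-EPSC peak 657 bp, and ESCs had none. The ESC peak of 319 bp lay 6170 bp downstream at an internal start, where D-EPSCs had 494 bp and L-EPSCs 434 bp.

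Hnf4a and Hnf4g encode endodermal factors of liver, gut and kidney. Hnf4a was in both EPSC lists, but not at the same place. The L-EPSC peak, 136 bp at chr2:163332664-163332799, lay at the first start cluster and the D-EPSC peak, 119 bp at chr2:163372967-163373085, at the third, 40009 bp downstream. Both were near the narrowest width in their lists, which was 117 bp for D-EPSCs and 118 bp for L-EPSCs. Hnf4g had a 419 bp peak at its first start in L-EPSCs only, and the nearest peaks of the other lists were 32.6 kb away. Nr2e3, a photoreceptor regulator, had a D-EPSC start peak of 489 bp that reached the window by its edge. ESC and L-EPSC peaks of 134 and 257 bp overlapped it but stopped 1109 and 1009 bp from the start, so the class of Nr2e3 rests on the 1 kb limit. Nr2e1 (TLX), which maintains neural stem cells, had no peak nearer than 53.6 kb in ESCs and had 2 gene body peaks in each EPSC list, the nearest 5.29 and 5.46 kb from a start.

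**Figure D2:**
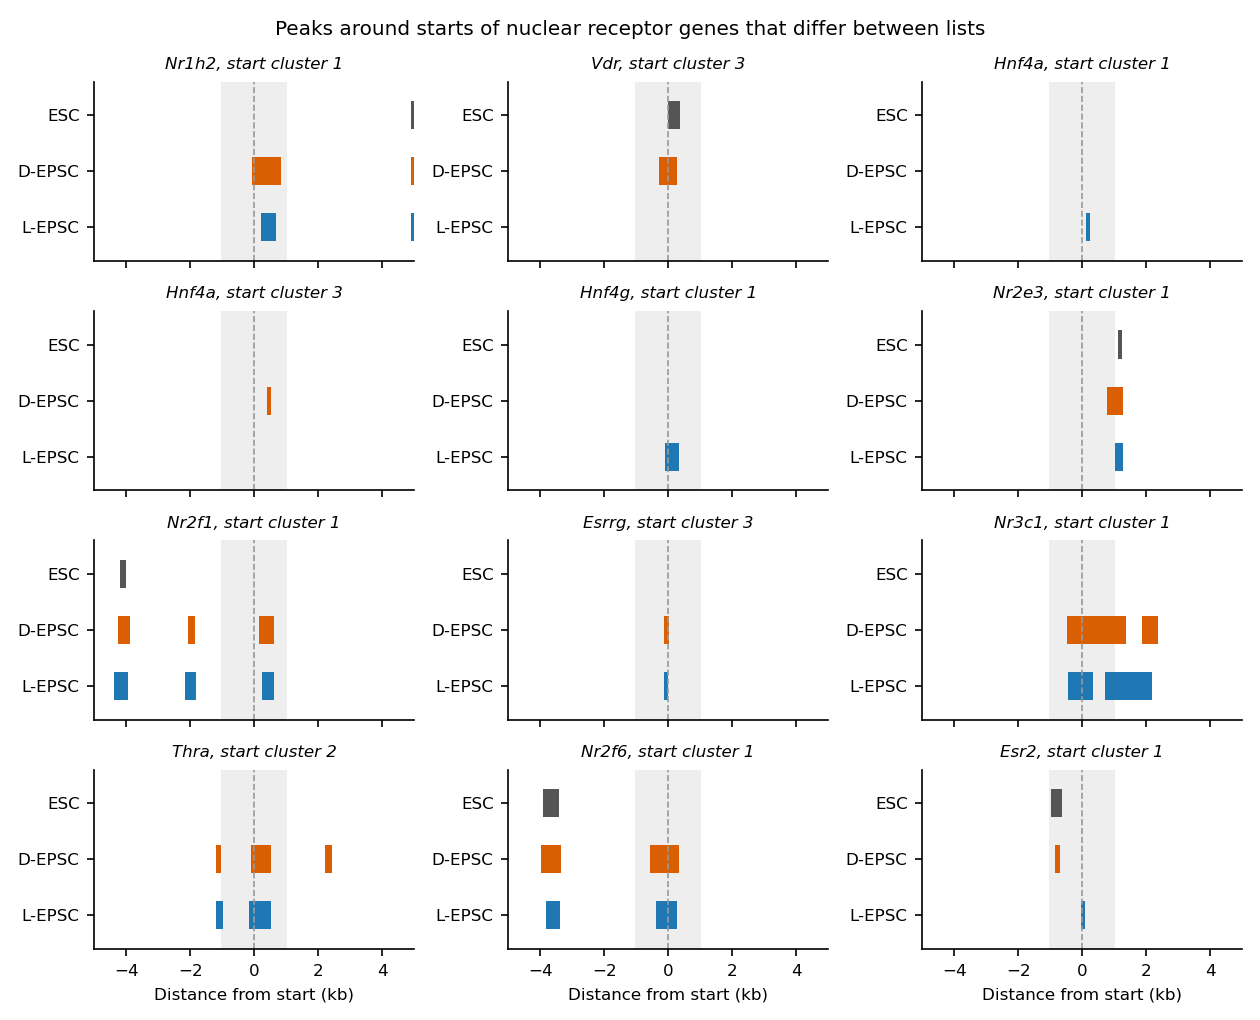
Peaks of the 3 lists (rows) by distance in kb from a start, in the direction of transcription, at 12 start clusters. The dashed line is the start and the grey band the 1 kb window. The ESC row is empty in the band at Nr1h2, both Hnf4a clusters, Hnf4g, Nr2e3, Nr2f1, Esrrg, Nr3c1, Thra and Nr2f6. The peaks of Nr2e3 sit at or just outside the edge of the band.

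The estrogen receptor genes had start peaks in all 3 lists, but away from the first start or at different sites. Esr1 peaks of 914, 865 and 345 bp lay at an internal start with no coding transcript, 101058 bp from the first start. At the first 2 clusters of Esr1, which start coding transcripts, no list had a peak. The Esr2 peaks of ESCs (323 bp) and D-EPSCs (154 bp) were 644 and 691 bp upstream of the first start. L-EPSCs had instead a 118 bp peak on the start itself that overlapped neither. Esrra, a regulator of mitochondrial genes, had 600, 969 and 959 bp. Esrrg, the related oxidative metabolism receptor, had only narrow EPSC peaks of 173 and 122 bp at the third start cluster, 389036 bp into a gene of 606 kb, with no ESC peak closer than 4364 bp to a start.

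The glucocorticoid receptor gene Nr3c1 had the widest start peak in D-EPSCs of all 36 genes and none in ESCs. D-EPSCs had peaks of 1858 and 497 bp and L-EPSCs peaks of 1470 and 785 bp, which lay within 1 kb of its first 4 start clusters. The nearest ESC peak was 300 kb away. The surrounding ESC gap, chr18:39346466-40378821, was 1.03 Mb long and held 6 D-EPSC and 6 L-EPSC peaks, and 228 of 28945 gaps between neighbouring ESC peaks were at least as long. The mineralocorticoid receptor gene Nr3c2, its closest relative, had start peaks in every list at its first and second clusters. They measured 359, 807 and 996 bp at the first cluster and 826, 762 and 732 bp at the second. Pgr, the progesterone receptor gene, had 651, 1588 and 817 bp, and its 2 ESC peaks both overlapped the single D-EPSC peak.

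All 3 NR4A genes, immediate-early genes that act without a known ligand, had start peaks in every list. Nr4a1 had 2 peaks in each list, the widest of 668, 569 and 824 bp. At Nr4a2, which specifies dopamine neurons, the widest measured 493, 1248 and 899 bp, and D-EPSCs had 1 more start peak, of 986 bp, whose L-EPSC counterpart of 381 bp counted as gene body. Nr4a3 had narrower ones of 296, 474 and 193 bp. Nr5a1 (SF-1), the gonadal and adrenal factor, had peaks only at internal starts, of 469, 361 and 511 bp, and none at its first start. Its neighbour Nr6a1 (GCNF), 8828 bp away, had the widest start peak of the family in ESCs and in L-EPSCs, at 1491, 1732 and 2121 bp in the 3 lists. The L-EPSC peak was wider than the widest start peak of 99.8% of all genes with one in that list.

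**Figure D3:**
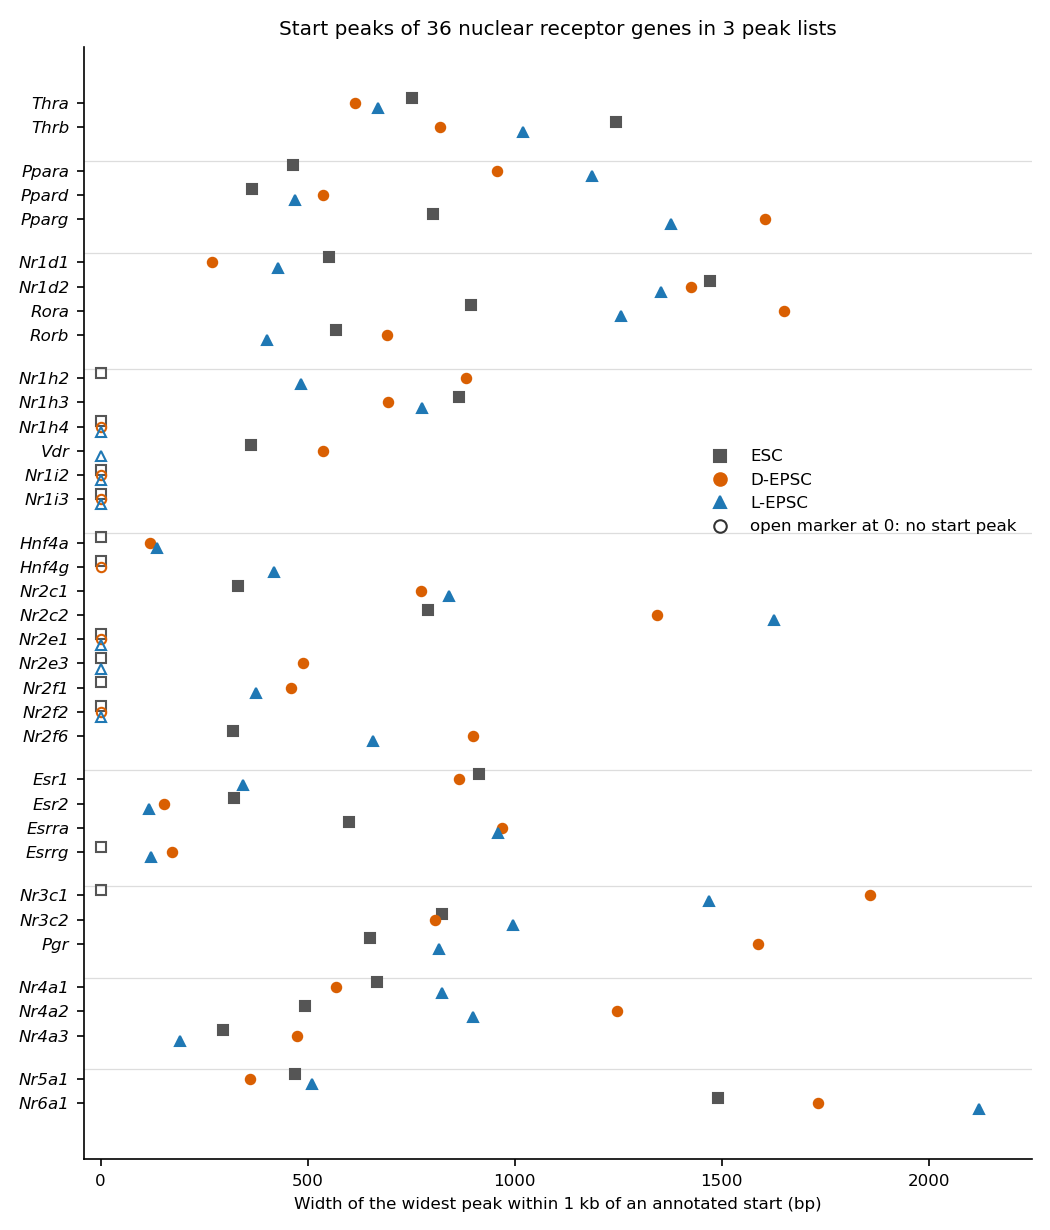
Width in bp (horizontal axis) of the widest start peak of each receptor (rows, grouped by subfamily) in ESCs (squares), D-EPSCs (circles) and L-EPSCs (triangles), with open markers at 0 for no start peak. Nr6a1 reached 2121 bp in L-EPSCs, and Nr3c1 stood at 1858 and 1470 bp in the EPSC lists with none in ESCs.

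The 36 receptors have 112 start clusters, and 33 receptors (91.7%, beside 40.3% of all genes) have 2 or more, so that they had more windows in which a peak could fall. The part of this in the shares given above was not tested. Of the 33, 26 had a peak at some clusters and none at others (78.8%, beside 72.2% of all genes with 2 or more). By cluster, 33 had a peak in all 3 lists (29.5% beside 31.3% over the clusters of all genes), 12 in both EPSC lists only (10.7% beside 7.29%) and 53 in no list (47.3% beside 55.2%). A further 7 had one in D-EPSCs only (6.25% beside 3.47%), 4 in L-EPSCs only (3.57% beside 1.53%), 2 in ESCs only (1.79% beside 0.384%) and 1 in ESCs and D-EPSCs (0.893% beside 0.486%). With the most 5′ cluster alone, a definition chosen after seeing the data, 19 receptors had a peak in all 3 lists (52.8% beside 47.9% of all genes), 5 in both EPSC lists only (13.9% beside 9.05%) and 9 in none (25.0% beside 37.5%). Thra and Nr2f6 then joined Nr1h2, Nr2f1 and Nr3c1 in the EPSC class, Hnf4a moved to L-EPSCs only, and Vdr, Esr1, Esrrg and Nr5a1 moved to no list. Of the 23 receptors with start peaks in all 3 lists, 21 had an ESC start peak that overlapped a start peak of both EPSC lists, with Thra and Esr2 as the exceptions. Over all genes this held for 11324 of 11462.

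The widths of start peaks were then compared over the family. The median widest start peak was 626 bp in ESCs (95% interval 465 to 826, 24 genes), 790 bp in D-EPSCs (538 to 957, 30 genes) and 776 bp in L-EPSCs (429 to 996, 29 genes). All genes had medians of 541, 742 and 691 bp. Among the 23 receptors with a peak in every list, the peak was wider in D-EPSCs than in ESCs at 13 (56.5%, beside 82.8% of all genes of that class) and wider in L-EPSCs than in ESCs at 14 (60.9% beside 77.3%). The median ratio of widths was 1.22 for D-EPSCs over ESCs and 1.23 for L-EPSCs over ESCs, beside 1.36 and 1.27 over all genes. Between the EPSC lists the peak was wider in D-EPSCs at 12 of 23 (52.2% beside 58.6%). Thra and Esr2 were then left out, since no ESC start peak of theirs overlapped start peaks of both EPSC lists. At Esr2 the ESC and D-EPSC peaks did overlap each other. Without these genes the shares were 61.9% and 66.7% of 21 receptors, beside 82.8% and 77.5% of the genes with overlapping peaks. The widest peaks compared can still lie at different sites, as at Nr3c2 and Nr2f6. Thrb, Nr1d1, Nr1d2, Nr1h3 and Esr1 had narrower peaks in both EPSC lists than in ESCs. The intervals cover counting error only.

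Gene body peaks, those whose midpoint lay in the gene outside every start window, were found in 14 receptors for ESCs and in 18 for each EPSC state, beside 21.3%, 32.3% and 31.0% of all genes. They numbered 20, 52 and 41, or 0.486, 1.26 and 0.997 per 100 kb of gene, beside 0.797, 1.65 and 1.54 per 100 kb over all genes. Kept to the 28965 widest peaks of each list, the numbers were 17 in D-EPSCs and 19 in L-EPSCs against the 20 of ESCs, or 0.413 and 0.462 against 0.486 per 100 kb. All genes turned the same way under this cut, to 0.732 and 0.772 against 0.797 per 100 kb. Introns held all 20 ESC, 49 of 52 D-EPSC and 36 of 41 L-EPSC body peaks. Ppard had 3, 8 and 3 body peaks, in the same order of lists, and Nr6a1 had 2, 8 and 6. In Rora the numbers were 2, 4 and 7, so that L-EPSCs had the most, while Thrb had 2, 5 and 2 and Esr2 had 1, 4 and 2. Of the 52 D-EPSC body peaks, 29 overlapped no peak of the other lists (55.8%, beside 38.7% over all genes). The same held for 14 of 41 L-EPSC body peaks (34.1% beside 32.3%) and 5 of 20 ESC body peaks (25.0% beside 18.6%). D-EPSC body peaks were overlapped by an L-EPSC peak in 40.4% of cases (57.7% over all genes) and by an ESC peak in 23.1% (33.2%). L-EPSC body peaks were overlapped by a D-EPSC peak in 58.5% (62.0%) and by an ESC peak in 36.6% (37.6%).

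**Figure D4:**
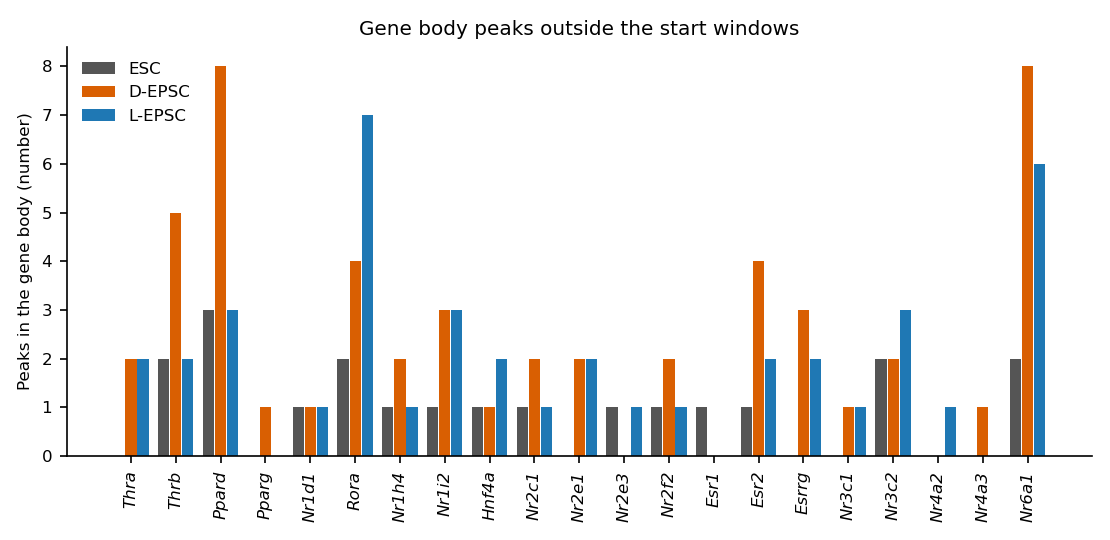
Number of peaks in the gene body outside the start windows (vertical axis) for each receptor gene with at least 1 such peak (horizontal axis), in ESCs (grey), D-EPSCs (orange) and L-EPSCs (blue). Ppard and Nr6a1 reached 8 in D-EPSCs, and Rora reached 7 in L-EPSCs.

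CpG content was measured at 1 start per gene, the start nearest a peak or, for genes with no start peak in any list, the most 5′ start, so the starts of the classes were chosen by different rules. CpG observed/expected, which sets the CpG dinucleotides found against those that the C and G content predicts, had a median of 0.651 within 1 kb of that start in the 23 receptors with peaks in all 3 lists (0.562 to 0.744), beside 0.637 over all genes of that class. The 5 receptors of the EPSC class had a median of 0.623 (range 0.274 to 0.790) and all genes of that class 0.549. For the 5 receptors with no start peak it was 0.258 (range 0.217 to 0.767), beside 0.178. The values of the 3 classes overlap, and at the most 5′ start the EPSC class stood above the class of all 3 lists, at 0.689 against 0.588. Nr2e1 stood apart in this class, with a CpG-rich start at 0.767 and no start peak in any list. Hnf4a, at 0.274, was the lowest of the EPSC class. Over all 36 receptors the median was 0.588, beside 0.485 for all genes.

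**Figure D5:**
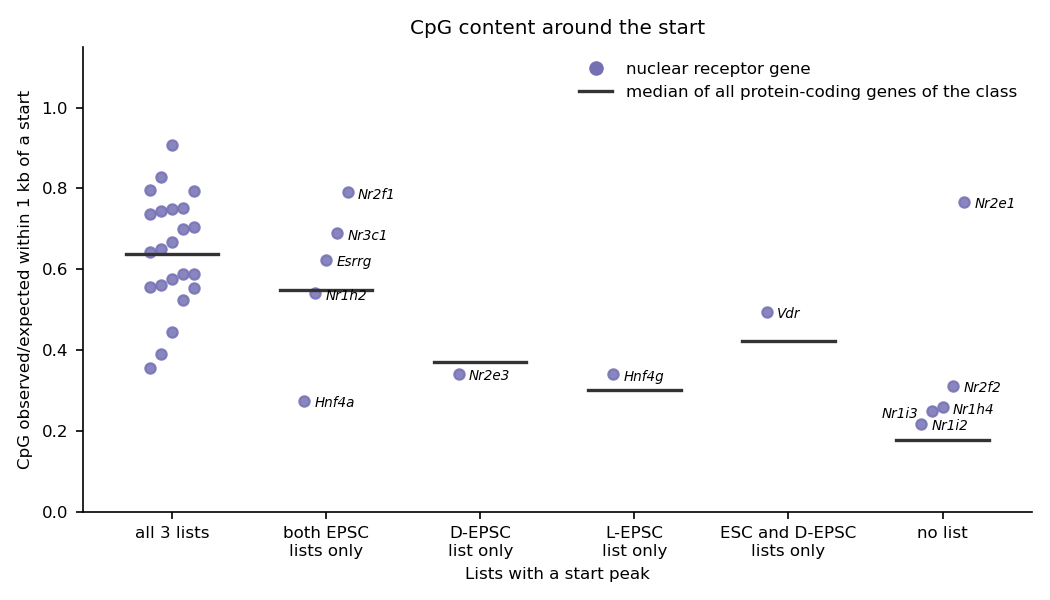
CpG observed/expected within 1 kb of 1 start per receptor (vertical axis, points), the start nearest a peak or the most 5′ start where no list had one, by the lists with a start peak (horizontal axis), with the median of all protein-coding genes of the same class as a bar. Nr2e1, at 0.767, lies above the other 4 receptors with no start peak, and the 23 with peaks in all 3 lists range from 0.356 to 0.907.

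The hexamer AGGTCA, to which most of these receptors bind, was searched on both strands in the 400 bp around each peak midpoint, a window that reaches beyond the narrower peaks. It was present in 21.2% (95% Wilson interval 10.7 to 37.8, 33 peaks), 22.7% (12.8 to 37.0, 44 peaks) and 17.5% (8.75 to 31.9, 40 peaks) of receptor start peaks, again in the order of the lists, beside 14.2%, 14.8% and 14.7% of the start peaks of all genes, which lie within these intervals. In receptor gene body peaks the shares were 40.0% (21.9 to 61.3, 20 peaks), 38.5% (26.5 to 52.0, 52 peaks) and 48.8% (34.3 to 63.5, 41 peaks), beside 26.7%, 26.8% and 28.0% in those of all genes and 22.0%, 23.3% and 24.1% in all peaks. The intervals for ESCs and D-EPSCs hold the share in body peaks of all genes, and that for L-EPSCs lies above it. The intervals treat peaks of the same gene as independent draws, and several were read side by side. Over start and body peaks together the L-EPSC share was 33.3% (24.0 to 44.1), and 26.9% (16.8 to 40.3) in lists of equal size. Whether the L-EPSC share differs from that of all genes was not tested. The lists share sites, and merged across lists the body peaks made 76 sites, of which 29 held the hexamer, in 15 receptor genes. The longer form TCAAGGTCA, bound by monomers of the estrogen-related and SF-1 type, was in 1 D-EPSC body peak, at Pparg (1.19% of all D-EPSC peaks), and in no other receptor peak. AAAGGTCA, the NR4A element, was in 1 D-EPSC start peak (1.99% of all D-EPSC peaks) and 1 L-EPSC start peak, both at Nr2c1. Every match to either longer form also counts as a match to AGGTCA. Direct repeats of the hexamer with up to 5 bases between, its inverted repeat with 3 bases between and the glucocorticoid palindrome of AGAACA were in no receptor peak. Each was in 0.0856% of all peaks or fewer in every list, so none would be likely among 53 to 96 receptor peaks.

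Sequences of 2 sets of peaks are given on mm9, 5′ to 3′ on the strand of the gene and outside annotated exons, with AGGTCA or its reverse complement in capitals. The first set shows 3 of the 5 receptors with a start peak in both EPSC lists but not the ESC list, Nr2f1 and Nr3c1 being left out. For Nr1h2 it gives 300 bp, the longest length printed, of the stretch common to both EPSC peaks (chr7:51808639-51808938, minus strand). For Esrrg it gives the whole stretch common to both EPSC peaks (chr1:189821576-189821688, plus strand). For Hnf4a it gives the part of the L-EPSC peak outside exons (chr2:163332724-163332799, plus strand). None of these stretches holds the hexamer, though the 400 bp around the Hnf4a peak do so once, and their GC content was 60.7%, 69.0% and 60.5%. The second set shows intronic stretches common to peaks of all 3 lists that hold it once, at Nr1h4 (chr10:88933773-88934034, minus strand), Nr1i2 (chr16:38254149-38254268, minus strand), Ppard (chr17:28397285-28397374, plus strand) and Thra (chr11:98616105-98616384, plus strand). Nr1h4 and Nr1i2 have no start peak, so these are their accessible sites shared by every state, and the Thra stretch is the one at which the ESC peak counted as a start peak.
Nr1h2: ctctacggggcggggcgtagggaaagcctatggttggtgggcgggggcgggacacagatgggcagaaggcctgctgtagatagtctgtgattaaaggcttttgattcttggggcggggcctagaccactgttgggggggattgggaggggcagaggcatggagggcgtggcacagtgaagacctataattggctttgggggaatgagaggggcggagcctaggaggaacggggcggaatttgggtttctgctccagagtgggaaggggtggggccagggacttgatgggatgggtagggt
Esrrg: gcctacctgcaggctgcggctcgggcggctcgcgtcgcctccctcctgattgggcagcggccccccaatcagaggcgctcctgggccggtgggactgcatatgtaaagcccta
Hnf4a: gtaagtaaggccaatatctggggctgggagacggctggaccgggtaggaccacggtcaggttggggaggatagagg
Nr1h4: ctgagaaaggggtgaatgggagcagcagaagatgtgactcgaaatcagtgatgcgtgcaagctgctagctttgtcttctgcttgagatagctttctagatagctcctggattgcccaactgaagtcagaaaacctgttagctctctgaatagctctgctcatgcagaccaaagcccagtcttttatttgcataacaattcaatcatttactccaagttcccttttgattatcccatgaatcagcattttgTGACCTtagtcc
Nr1i2: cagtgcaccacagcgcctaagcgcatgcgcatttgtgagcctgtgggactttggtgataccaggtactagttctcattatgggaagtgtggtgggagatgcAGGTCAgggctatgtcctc
Ppard: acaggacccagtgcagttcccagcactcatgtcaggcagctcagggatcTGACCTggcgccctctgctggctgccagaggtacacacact
Thra: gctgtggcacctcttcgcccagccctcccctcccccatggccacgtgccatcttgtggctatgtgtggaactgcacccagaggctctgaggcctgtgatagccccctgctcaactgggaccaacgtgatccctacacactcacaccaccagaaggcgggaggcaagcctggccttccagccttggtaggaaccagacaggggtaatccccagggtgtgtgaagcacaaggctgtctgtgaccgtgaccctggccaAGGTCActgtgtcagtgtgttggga

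Genes of proteins that act with the receptors were counted as well. Of 25 coregulator and chaperone genes, 20 had a start peak in ESCs and 24 in each EPSC list, beside the 52.3%, 64.2% and 61.5% of all genes. Among them Ncoa6 (a coactivator), and Hdac3 and Tbl1xr1 (members of corepressor complexes) had start peaks in both EPSC lists but not the ESC list, with widths of 704 and 1288 bp at Ncoa6, 1689 and 801 bp at Hdac3 and 1092 and 1403 bp at Tbl1xr1, D-EPSCs first. The nearest ESC peak was 11387 bp from a start at Ncoa6, 8381 bp at Hdac3 and 1552 bp at Tbl1xr1. Ncor1, a corepressor, had peaks in every list, of 395, 923 and 1017 bp. Ppargc1a, the PGC-1α coactivator of PPARs and estrogen-related receptors, had no start peak in any list, while Ppargc1b had 445, 1808 and 1875 bp. All 6 chaperone genes of the steroid receptors, among them Hsp90aa1, Hsp90ab1 and Fkbp5, had a start peak in every list. Of the 20 with a peak in all lists, 20 were wider in D-EPSCs than in ESCs and 17 wider in L-EPSCs than in ESCs, where 13 and 14 of the 23 receptors and 82.8% and 77.3% of all genes were.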

How the data were processed

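ATAC-seq was made in 6 samples, 2 technical replicates each of ESCs, D-EPSCs and L-EPSCs. The authors trimmed reads, aligned them to mm9 with Bowtie2, kept properly paired reads with a mapping quality of at least 20 and called peaks with MACS at default settings. The submitters' processing notes name Bowtie2 2.3.5, SAMtools 1.10, Trim Galore 0.6.3 and FastQC 0.10.1. How replicates were combined is not given in the sources used here. The deposited values are the chromosome, start, end and name of each peak, so their unit is a position on the genome, with no count, score or p-value. Removal of duplicates and a shift for Tn5 are not stated. The first could change which weak peaks were called and the second the exact ends of a peak, and neither was tested here.

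Peaks were compared with GENCODE M1 genes on NCBIM37, the assembly of mm9, in Python 3.11.15 with numpy 2.4.6 and pysam 0.24.0. All positions lay within its chromosome lengths. A start peak shares at least 1 bp with the 1 kb on either side of any annotated start. A gene body peak has its midpoint in the gene and touches no start window. The steps were tested on simulated data. No test was made, since each state has 1 list. Wilson intervals for shares and order-statistic intervals for medians are at 95%. They cover counting error only. Values are given for receptors that differ between lists, for the 5 with the widest start peak, for the 5 with most gene body peaks and for those with a peak at only some start clusters. The receptors, the other gene lists and the rules were chosen with earlier results of these data known. 1 coregulator gene is counted but not reported here by name.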

Additional observations from a re-analysis of the deposited data

How the results depend on the processing

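Over all definitions and results, 155 of 196 recomputed values stayed within 1.5 times the reported count, or within the interval of the reported median or share, and 22 of 36 receptors kept their class under every definition. The excess of start peaks in EPSCs over ESCs kept its direction under each definition tried. In lists of equal size it was small, with 26 receptors in D-EPSCs and 25 in L-EPSCs against 24 in ESCs. All genes went the same way there, at 59.4% and 57.0% against 52.3%. The order of D-EPSCs and L-EPSCs did not. With a start distance of 500 bp, 2 receptors had a start peak in L-EPSCs and not D-EPSCs and 1 the reverse, with 0 in D-EPSCs only and 2 in L-EPSCs only. Protein-coding starts alone gave the same 2 and 1, with 0 in D-EPSCs only and 2 in L-EPSCs only. The most 5′ start cluster alone also gave 2 and 1, and 0 in ESCs and not L-EPSCs. Its classes held 2 in L-EPSCs only (0.961% of all genes), 0 in ESCs and D-EPSCs (0.559%) and 9 in no list (37.5%). At 2.5 kb, and likewise with the peak midpoint inside the window, 0 receptors were in D-EPSCs only and 1 was in D-EPSCs and not L-EPSCs. Lists cut to their 28965 widest peaks gave 3 in both EPSC lists only, 1 in ESCs only, 2 in ESCs and D-EPSCs and 1 in ESCs and L-EPSCs. The pairs then gave 2 in ESCs and not D-EPSCs (2.06%), 3 in ESCs and not L-EPSCs (2.55%) and 2 in L-EPSCs and not D-EPSCs (2.27%). Gene body peaks fell to 17 in D-EPSCs and 19 in L-EPSCs. With the widest 50% of each list, 15 receptors were in all 3 lists, 3 in D-EPSCs only, 2 in ESCs and L-EPSCs and 8 in no list, and the pairs gave 2 in ESCs and not D-EPSCs, 3 in L-EPSCs and not D-EPSCs and 4 the reverse. With a common minimum width of 128 bp, 3 were in both EPSC lists only, 2 in D-EPSCs only, 2 in L-EPSCs only and 2 in ESCs and D-EPSCs, and the pairs gave 2 in ESCs and not L-EPSCs, 2 in L-EPSCs and not D-EPSCs and 4 the reverse. Counts given here without a share of all genes have none computed under the same definition, so they cannot be set beside all genes. The cause of these changes was not tested. The depth behind each list is unknown, so absent peaks may be below detection. No paired analysis was possible because the replicates of each state were combined in 1 list, which also left no replicate to drop.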
